A study of Drosophila melanogaster with 19 samples.

Results

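The genes described here encode subunits of the Mediator complex and of the general transcription factors. They were taken by name: every gene whose FlyBase symbol starts with MED or Taf followed by a digit, or with TfII. The rule found 49 of the 13929 genes in the count tables, which were 25 MED genes, 15 Taf genes and 9 TfII genes. The rule reads names only, although the family itself was picked with earlier results of these data known. By the annotation used for the symbols, Taf9 is the gene also called e(y)1, Taf3 is also called bip2 and Taf12L is also called rye, so these were included.

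Nuclear RNA was sequenced from photoreceptor nuclei of male Drosophila melanogaster. All groups carried the same transgenes, UAS-GFP-Msp300KASH at attP2 and rh1-GAL4, in a w and ry[506] background, so that a GFP tag anchored in the nuclear membrane was made where the Rhodopsin 1 promoter is active, in the outer photoreceptors. The age series held 3 libraries each at 20 (D20), 30 (D30), 40 (D40), 50 (D50) and 60 (D60) days after eclosion, from flies kept at 25 °C with 12 h of light and 12 h of dark and collected at ZT 6. A further 2 libraries each were labelled DD (constant darkness) and LD (light:dark cycle). Their titles start with D101 and their column headings with D10, and no label says what age these stand for. Their protocol text names only the light:dark cycle. The study's methods call the replicates of its RNA-seq samples independent and describe each as made from a pool of flies.

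The D30 to D60 libraries held 629634 to 864536 counts, the D20 libraries 4525799 to 5100377, and the DD and LD libraries 16255052 to 19704692. The members together took 0.10 to 0.14% of the counts of every library. In the library of LD replicate 1, 6002 genes were detected against 8259 in LD replicate 2, and 20 of the 49 members had no count there against 5 in LD replicate 2. Replicate 1 of D30 and replicate 1 of D40 also stood apart: without both, 366 genes were called between these ages, against 1 gene with them. The 12 marker genes of the outer photoreceptors, among them the Rhodopsin 1 gene ninaE, summed to 61880 to 146000 CPM (counts scaled to library size) in every library, whereas the highest sum in any library was 100.2 CPM for 4 glial genes, 132 CPM for 3 muscle genes, 204 CPM for 5 fat body and haemocyte genes, and 716 CPM for 4 genes of brain neurons. The 4 rhodopsin genes of the inner photoreceptors summed to at most 195.8 CPM at D20 to D60 and to 2808 to 5181 CPM in the DD and LD libraries. The CPM values were corrected by TMM, which allows for library composition, within each of the 2 deposited tables (D30 to D60 in one, D20, DD and LD in the other). Levels are tested across the tables only in the fit of D30 with D20, which scaled both ages together. In such bulk samples, fewer cells of a type and less RNA per cell cannot be told apart.

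Mediator is a large complex that carries signals from DNA-bound activators to RNA polymerase II. Its head and middle modules contact the polymerase, its tail contacts activators, MED14 links the modules as a backbone, and a separable kinase module is built on the fly genes skd and kto. The general transcription factors assemble with the polymerase at the promoter: TFIID, made of the TATA-binding protein and the TAFs, recognizes core promoter DNA, TFIIA and TFIIB stabilize and bridge, TFIIF escorts the polymerase, and TFIIE brings in TFIIH. TFIIS, also included by name, is an elongation factor that helps a stalled polymerase resume.

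Most of the member counts came from a few genes. At D20, the deepest libraries of the age series, levels between genes were compared as CPM per kb of annotated exon. Taf4, a histone-fold subunit that holds the TFIID core together, had the highest level at 59.4, followed by Taf1, the largest TFIID subunit, at 43.2 CPM per kb. The ranges of Taf4 and Taf1 over the 3 libraries did not overlap. MED21, MED26, Taf3 and MED31 followed at 37.1, 33.5, 31.3 and 28.4 CPM per kb, each overlapping its neighbour in the order. MED31 was separated from the next member, Taf12 (18.6 CPM per kb). Of the 48 pairs of neighbours in the order, 3 did not overlap, including the step to MED9 at 0. The lowest level with a count was that of TfIIA-S-2, a second copy of the small TFIIA subunit, at 1.19 CPM per kb. The median of the 48 detected members was 5.68 CPM per kb, against 2.65 over all 11980 detected genes, and 40 members lay above the median of all genes. Replicates varied little for most members, with a coefficient of variation under 20% for 30 of them at D20.

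**Figure D1:**
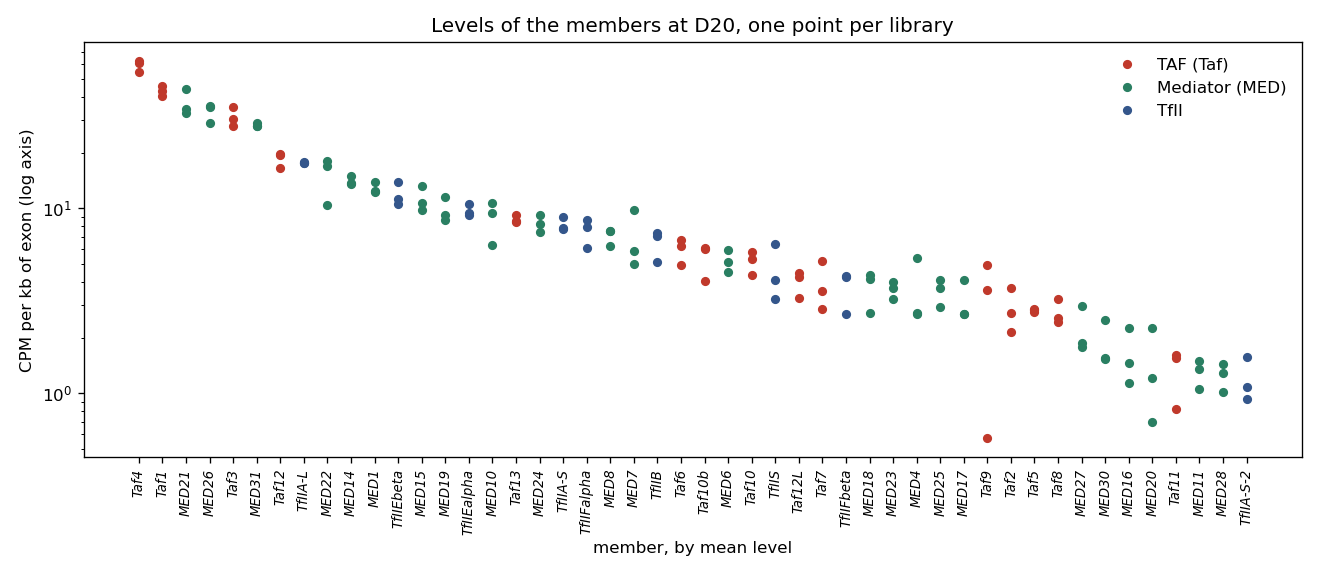
Level of each detected member at D20 in CPM per kb of annotated exon (log axis), one point per library (n = 3), ordered by mean and coloured by family. Taf4 at 59.4 and Taf1 at 43.2 lead the order, and TfIIA-S-2 at 1.19 ends it.

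Taf4, Taf1, Taf3 and MED26, 4 genes with long exons, held 58.2 to 65.5% of all member counts in each of the 7 groups. The order of the members by CPM, not divided by exon length, was similar between the D20 libraries (Spearman's rho 0.957 to 0.974 across 48 members, which share libraries and are not independent replicates). It was less similar between DD replicates 1 and 2 (rho 0.807) and between LD replicates 1 and 2 (rho 0.696). MED9 had no count in any of the 19 libraries, and 100% of its exonic length is shared with CG42518 on the same strand. Among the other members, MED21 and TfIIB overlapped an antisense gene (Set1 and TBC1D16) over 26.6% and 26.8% of their exons. Whether the counting used strand is not given in the sources used here, so reads of these pairs may not be told apart.

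The comparison of D60 with D30 asked which members differed between the oldest and the youngest age of one table. Taf1 rose, and Taf3 and Taf4 fell, while 10 other tested members did not pass the threshold. Only 13 of the 49 members passed the filter on low counts, because the libraries were shallow: the highest count of a filtered member in any of the 6 libraries was 16. The 3 of 13 called (adjusted p under 0.05, edgeR quasi-likelihood F-test with Benjamini-Hochberg adjustment over all genes tested) stand beside 23.6% of the 4068 genes tested (12.9% higher and 10.7% lower). The median log2 fold change was −0.09 over the 13 members and −0.01 over all genes tested. The 12 outer photoreceptor genes summed to 77740 to 83650 CPM at D60 and 67890 to 74470 CPM at D30, without overlap, and 5 of them were called (4 higher). The muscle genes summed to 30.3 to 34.3 CPM at D60 and 30.3 to 91.7 CPM at D30, the glial genes to 25.3 to 33.0 CPM at D60 and 12.7 to 42.6 CPM at D30, the brain neuron genes to 82.7 to 89.3 CPM at D60 and 86.0 to 106 CPM at D30, and the fat body and haemocyte genes to 30.3 to 44.9 CPM at D60 and 27.1 to 38.2 CPM at D30. The muscle myosin gene Mhc had a log2 fold change of −0.85 ± 0.38 (SE, edgeR adjusted p = 0.1302). The part of these marker genes in the members' values was not tested.

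Taf1 (FBgn0010355, 3R:6646889-6656048 in dm6, plus strand) had 276, 317 and 256 counts in the D60 libraries and 93, 151 and 125 counts in the D30 libraries. Scaled for depth, these were 411, 419 and 353 CPM at D60 and 148, 192 and 184 CPM at D30. Every D60 library was above every D30 library. The log2 fold change was 1.18 ± 0.13 (SE, n = 3 each, edgeR adjusted p = 7.125e-05). Between these ages, Taf1 had 268, 173 and 184 CPM at D40 and 253.5, 268 and 198 CPM at D50. The mean was higher at each later age. D40 overlapped both D30 and D50, D50 lay above D30 in every library, and every D60 library lay above all others of the table.

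Taf3 (FBgn0026262, 4:459887-466828 in dm6, minus strand) encodes a TFIID subunit whose mammalian form binds a methylated histone tail at active promoters. It had 80.3, 75.3 and 92.3 CPM in the D60 libraries and 142, 121 and 153 CPM in the D30 libraries. All 3 D60 libraries were below all 3 D30 libraries, with a log2 fold change of −0.73 ± 0.15 (SE, n = 3 each, edgeR adjusted p = 0.005508). Taf3 averaged 139 ± 16.2, 111 ± 12.9, 89.2 ± 22.7 and 82.6 ± 8.74 CPM (SD, n = 3 each) from D30 to D60. An antisense RNA gene, asRNA:CR45126, overlaps 19.8% of its exons.

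Taf4 (FBgn0010280, 3L:16113212-16121651 in dm6, plus strand) had 181.5, 218 and 194 CPM in the D60 libraries and 250.0, 308 and 304 CPM in the D30 libraries, again without overlap. Its log2 fold change was −0.52 ± 0.13 (SE, n = 3 each, edgeR adjusted p = 0.01087). Taf4 averaged 288 ± 32.5, 271 ± 37.1, 233 ± 28.7 and 198 ± 18.5 CPM (SD, n = 3 each) from D30 to D60. This call rests on the D60 libraries: the adjusted p was 0.06566 without D60 replicate 1 and 0.05974 without D60 replicate 3, with log2 fold changes of −0.47 and −0.51.

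**Figure D2:**
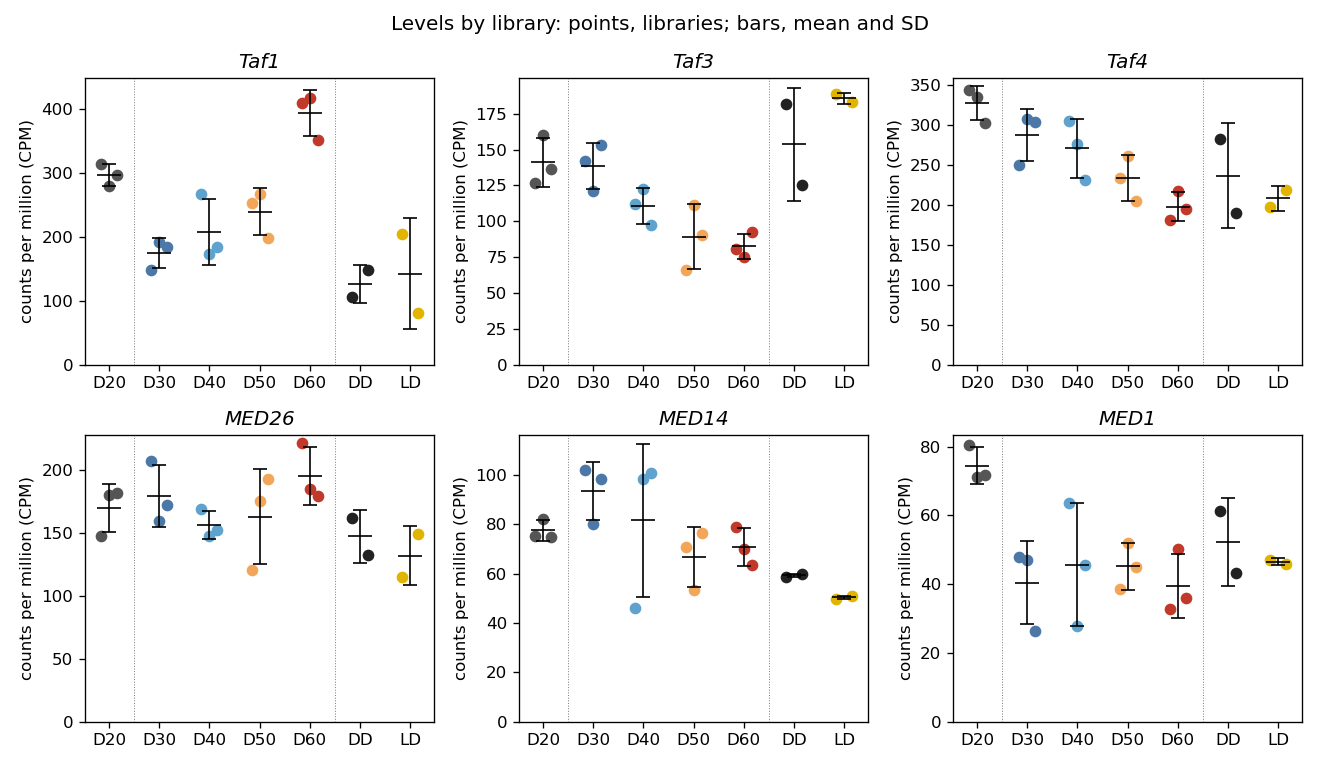
CPM of Taf1, Taf3, Taf4, MED26, MED14 and MED1 in each library of the 7 groups, with the mean and SD (n = 3 at each age, n = 2 for DD and LD); dotted lines separate D20, the D30 to D60 table and the DD and LD libraries. Taf1 reaches 353 to 419 CPM at D60, above 148 to 192 CPM at D30, while Taf3 and Taf4 are lower at D60 than at D30 in every library.

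The ratio of Taf1 to Taf4 counts, which needs no scaling between libraries, was chosen after both genes had been called in opposite directions and is given as a description only. It was 2.26, 1.92 and 1.82 in the D60 libraries and 0.592, 0.624 and 0.604 in the D30 libraries. The group means from D30 to D60 were 0.607, 0.765, 1.02 and 2.0. The ratio of Taf4 to Taf3 counts overlapped between the ages, with 2.26, 2.89 and 2.10 at D60 and 1.76, 2.55 and 1.99 at D30. Taf1 accounted for 29.7% of all member counts at D60 and for 14% at D30, and Taf4 for 14.9% at D60 and for 23.1% at D30.

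Taf2, the only other Taf gene tested at D60, had 19.3, 13.2 and 23.4 CPM at D60 and 14.3, 22.9 and 13.2 CPM at D30, with a log2 fold change of 0.13 ± 0.35 (SE). The remaining 11 Taf genes were below the filter. Their largest count in these 6 libraries was 15, and no direction is given for them.

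None of the 8 MED genes tested passed the threshold at D60. MED23, a tail subunit that contacts activators, had the largest difference upward, with 38.7, 26.4 and 22.0 CPM at D60 and 14.3, 19.1 and 19.1 CPM at D30. The groups did not overlap, and the log2 fold change was 0.72 ± 0.32 (SE, edgeR adjusted p = 0.1259, unadjusted p = 0.04252). MED15, the tail subunit that many activators bind, had 31.2, 19.8 and 17.9 CPM at D60 and 9.56, 17.8 and 19.1 CPM at D30, which overlapped (log2 fold change 0.55 ± 0.36, SE).

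MED14, the backbone, had 78.9, 70.0 and 63.4 CPM at D60 and 102, 80.2 and 98.5 CPM at D30. It did not overlap either, but its adjusted p was 0.1321 (log2 fold change −0.38 ± 0.17, SE, edgeR). MED21, in the middle module, had 20.8, 14.5 and 11.02 CPM at D60 and 31.9, 16.6 and 29.4 CPM at D30 (log2 fold change −0.71 ± 0.36, SE). MED1, a middle subunit that contacts nuclear receptors, was the nearest to no difference, at 32.7, 50.2 and 35.8 CPM at D60 and 47.8, 47.1 and 26.5 CPM at D30. Its log2 fold change was −0.01, with a 95% interval of −0.63 to 0.61. MED26, MED24 and MED31 lay between −0.11 and 0.14 in log2 fold change. The best counted of these, MED26, had 222, 185 and 179 CPM at D60 and 207, 159 and 172 CPM at D30, with a 95% interval of −0.18 to 0.46.

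Of the TfII genes, only TfIIA-L, the precursor of the large TFIIA subunits, was tested at D60. It had 16.4, 25.1 and 20.7 CPM at D60 and 25.5, 29.3 and 17.6 CPM at D30 (log2 fold change −0.21 ± 0.31, SE). TfIIB, TfIIA-S, TfIIEalpha, TfIIFalpha and TfIIS had 1 to 16 counts in the D60 and D30 libraries and were not tested. The 95% intervals of the 10 uncalled members reached 0.32 to 0.80 on the log2 scale to either side of the estimate, and 7 of them excluded a change of 1 (2-fold) in either direction.

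**Figure D3:**
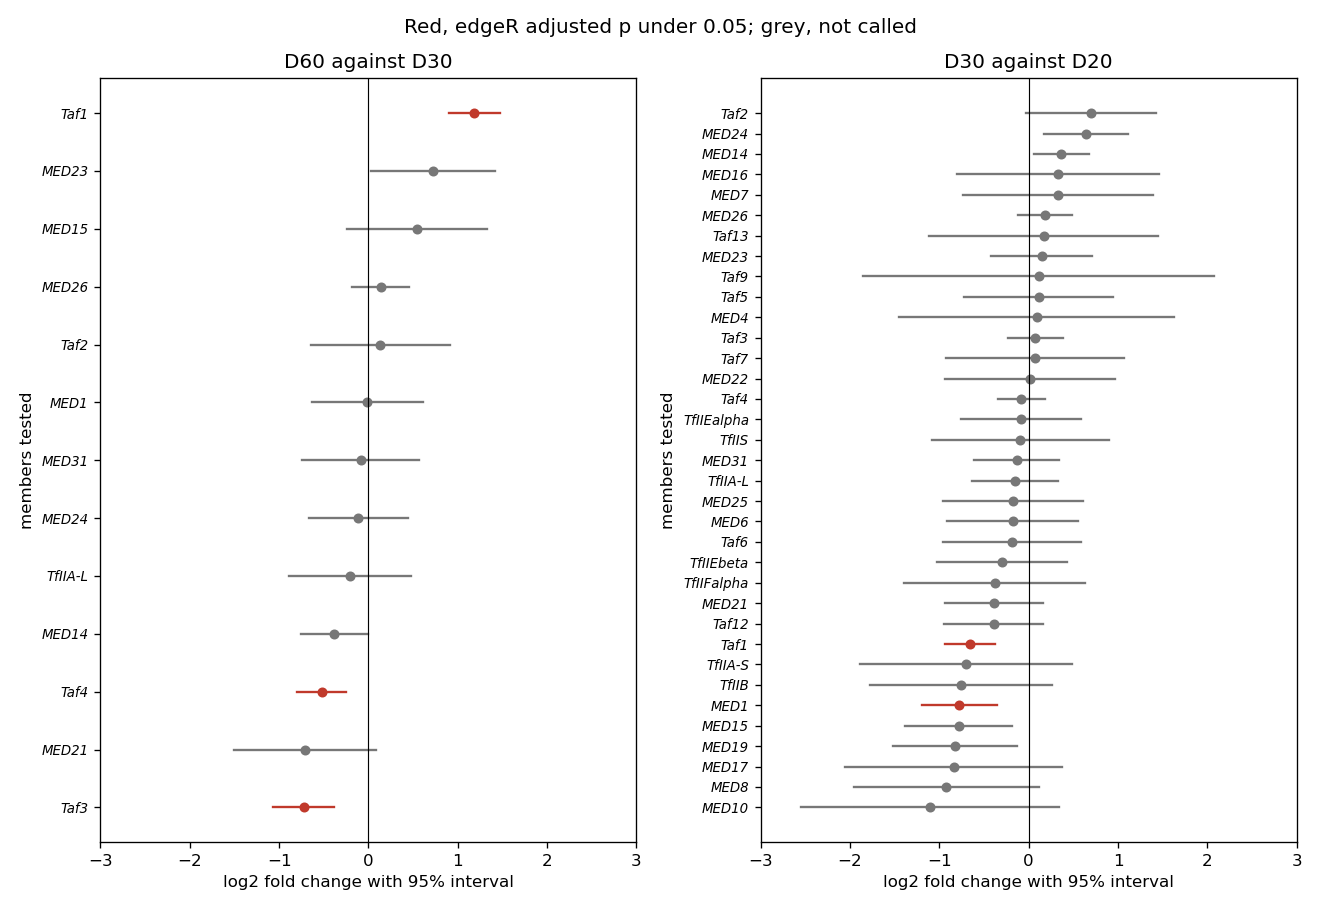
Log2 fold changes with 95% intervals for the members tested in D60 against D30 (left, 13 members) and D30 against D20 (right, 35 members); red marks an edgeR adjusted p under 0.05. Taf1 lies at 1.18 on the left and at −0.66 on the right.

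Over the 4 ages of the table, a slope on age called the same 3 members among 20 tested, beside 18.9% of the 4745 genes tested (10.6% with a positive and 8.32% with a negative slope). Per 10 days, Taf1 rose by 0.38 ± 0.06 on the log2 scale (SE, edgeR adjusted p = 0.0001711). Taf3 fell by 0.25 ± 0.06 (edgeR adjusted p = 0.005856) and Taf4 by 0.18 ± 0.05 (edgeR adjusted p = 0.01345) per 10 days. These slopes share the D30 and D60 libraries with the comparison above. Without the replicate 1 libraries of D30 and D40 the slopes of Taf1, Taf3 and Taf4 were 0.39, −0.25 and −0.20, and all 3 were called. The slope of Taf4 missed the threshold without D60 replicate 1 (edgeR adjusted p = 0.06335) and without D60 replicate 3 (0.05494). In a test for any difference among the ages, Taf1 alone was called (edgeR adjusted p = 0.0008613), with 0.05049 for Taf3 and 0.09291 for Taf4.

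Among the uncalled slopes, that of TfIIEalpha, the large TFIIE subunit, was −0.33 ± 0.17 per 10 days (log2, SE). TfIIEalpha had 8.93, 7.92 and 6.89 CPM at D60 and 15.9, 17.8 and 7.35 CPM at D30, which rest on 5 to 14 counts a library. Between these ages it had 8.25, 20.9 and 28.8 CPM at D40 and 13.2, 3.63 and 12.5 CPM at D50. Its mean was highest at D40 (19.3 CPM), so the course was not a steady fall. TfIIFalpha, the large TFIIF subunit, had 13.4, 13.2 and 12.4 CPM at D60 and 1.59, 20.4 and 7.35 CPM at D30, a spread at D30 wider than any difference (slope 0.07 ± 0.18, SE).

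D50 and D40 added no called member. At D50 against D30, 0 of 15 members tested were called, beside 1.36% of the 4179 genes tested by edgeR (1.17% higher and 0.191% lower). Taf1 (log2 fold change 0.48 ± 0.18, SE) and Taf3 (−0.61 ± 0.22, SE) were the 2 members with an unadjusted p under 0.05 by edgeR. This is beside 616 of the 4179 genes. DESeq2 also called 0 members at D50. At D40 against D30, 0 of 16 members were called by edgeR or DESeq2, beside 0.0238% of the 4209 genes tested by edgeR. By edgeR 0 members had an unadjusted p under 0.05, beside 282 of the 4209 genes. With the replicate numbers as a block, since same-numbered samples of these 2 ages deviated together, 29 genes and no member were called at D40. The log2 fold change of Taf1 at D40 was 0.26 ± 0.20 (SE) with all libraries and −0.06 without the replicate 1 libraries of D40 and D30. With any 1 library left out it was 0.04 to 0.38. D40 replicate 1 was the highest of these 6 libraries in Taf1 (268 CPM) and D30 replicate 1 the lowest (148 CPM).

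In the comparison of D30 with D20, Taf1 and MED1 were lower at D30 and no member was higher. The 2 ages come from different tables that also differ in depth, and an effect of age cannot be told apart from one of the table. The CPM values of the 2 ages were scaled within each table, and only the log2 fold changes rest on a shared scaling. Of 35 members tested, 2 were called, beside 21.2% of the 6380 genes tested (11.8% higher and 9.48% lower). By edgeR 6 members had an unadjusted p under 0.05, beside 2136 of the 6380 genes. The median log2 fold change was −0.14 over the members and 0.01 over all genes tested. The 12 outer photoreceptor genes summed to 67890 to 74470 CPM at D30 and 101300 to 104700 CPM at D20 (7 called lower, 1 higher). The 5 fat body and haemocyte genes summed to 27.1 to 38.2 CPM at D30 and 99.4 to 112 CPM at D20. The brain neuron genes summed to 86.0 to 106 CPM at D30 and 124 to 141 CPM at D20. The muscle genes summed to 30.3 to 91.7 CPM at D30 and 17.1 to 29.1 CPM at D20. The inner photoreceptor genes summed to 85.3 to 149 CPM at D30 and 64.5 to 89.35 CPM at D20 (2 called higher). The glial genes summed to 12.7 to 42.6 CPM at D30 and 21.85 to 23.3 CPM at D20. The part of these genes in the result was not tested.

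Taf1 had 148, 192 and 184 CPM at D30 and 314, 279.5 and 298 CPM at D20 (log2 fold change −0.66 ± 0.13, SE, n = 3 each, edgeR adjusted p = 0.002549). This comparison and that of D60 with D30 share the D30 libraries. MED1 had 47.8, 47.1 and 26.5 CPM at D30 and 80.6, 71.1 and 71.9 CPM at D20 (log2 fold change −0.78 ± 0.19, SE, n = 3 each, edgeR adjusted p = 0.01175). The call of MED1 was lost without D20 replicate 1 (adjusted p = 0.05409) and without D30 replicate 3 (adjusted p = 0.0664), the lowest of the D30 libraries. Without D30 replicate 1, with length offsets, with at least 10 counts in every library, and in one fit sharing more groups, MED24 was called in addition, as higher at D30.

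Taf3 and Taf4, which were lower at D60 than at D30, had no call at D30 against D20, with log2 fold changes of 0.07 (95% interval −0.23 to 0.38) and −0.08 (−0.34 to 0.18). Among the MED genes, MED15 (−0.78), MED19 (−0.82), MED14 (0.37) and MED24 (0.64) had an unadjusted p under 0.05 and adjusted p-values of 0.05223 to 0.09033 by edgeR. MED17, the core of the head module, had 3.19, 1.27 and 5.88 CPM at D30 and 5.56, 5.52 and 8.41 CPM at D20 (log2 fold change −0.84 ± 0.56, SE). None of the 7 TfII genes tested was called, with log2 fold changes of −0.76 to −0.09, beside 3149 negative values among the 6380 genes tested. A gene with few counts at D30 could pass the filter through the D20 libraries alone, so nothing is read from these directions. TfIIB, which bridges promoter and polymerase, had 1.59, 5.09 and 10.3 CPM at D30 and 11.8, 11.3 and 8.17 CPM at D20 (log2 fold change −0.76 ± 0.47, SE). TfIIA-S, the small TFIIA subunit, rested on 1 to 3 counts in the D30 libraries and 19 to 26 counts in the D20 libraries (log2 fold change −0.70 ± 0.55, SE). TfIIS had −0.09 ± 0.46 (log2 fold change, SE).

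The nearest gene upstream of Taf1 on the same strand was looked at after these values had been seen. CG31286 (FBgn0051286, 3R:6641232-6643346 in dm6, plus strand) lies 3542 bp before Taf1. It had 525, 470.1 and 549.6 CPM in the D60 libraries and 57.3, 36.9 and 25.0 CPM in the D30 libraries. At D40 it had 234.5, 25.5 and 19.2 CPM, and replicate 1, the high library, is also the one in which Taf1 was highest at D40. D50 had 162, 202.2 and 155 CPM and D20 had 189, 186 and 177 CPM. In the DD and LD libraries CG31286 was between 0 and 14.2 CPM, and LD replicate 1, where it had no count, held the most Taf1 counts of these 4 libraries (3911). Whether reads from one gene were counted in the other, and what part this had in the Taf1 result, was not tested. Ass, on the opposite strand and 2454 bp from Taf1, had 19.3, 13.2 and 11.02 CPM at D60 and 1.59, 1.27 and 0 CPM at D30. The next gene downstream of Taf1 on the same strand, twr, was at 7.44, 9.24 and 8.27 CPM at D60 and 12.7, 12.7 and 7.35 CPM at D30.

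**Figure D4:**
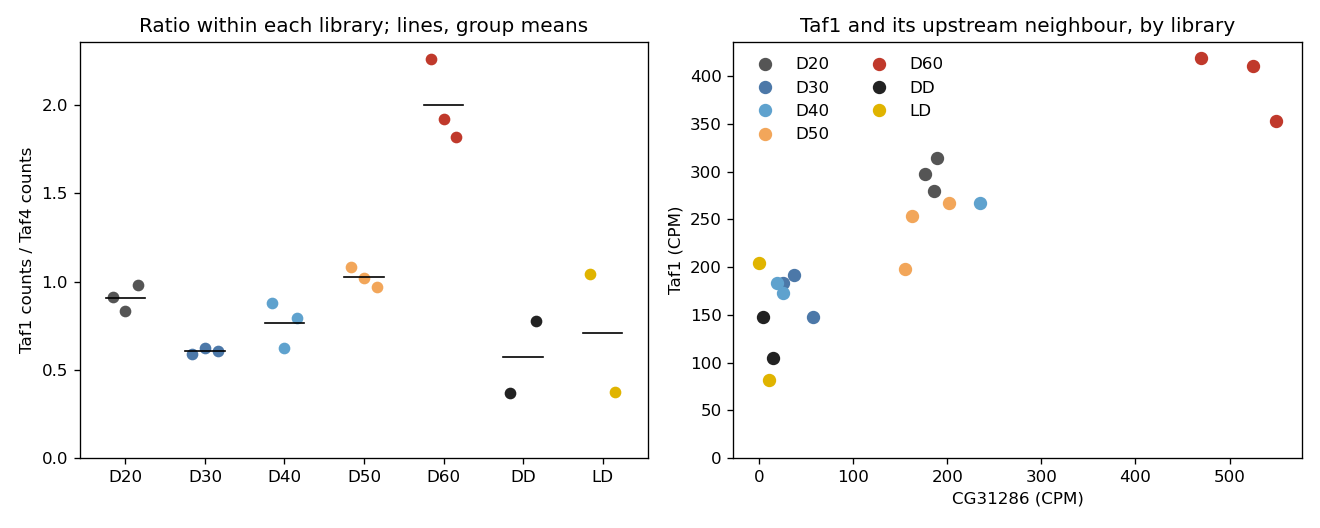
Left, ratio of Taf1 to Taf4 counts within each library, with the group mean as a line; right, Taf1 (CPM) against its same-strand upstream neighbour CG31286 (CPM) in each of the 19 libraries. The D60 libraries lie at ratios of 1.82 to 2.26 and at 470.1 to 549.6 CPM of CG31286, and D30 at 0.592 to 0.624 and 25.0 to 57.3 CPM.

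Other genes of the same machinery, under other symbols, were described from lists by role. Beside the members at D60 against D30, of 5 further Mediator genes (kto, skd, Cdk8, CycC and ix) 2 were tested. skd, the fly Med13 of the kinase module, fell to 794.5, 799 and 773 CPM at D60, against 1151, 973 and 1126 CPM at D30 (log2 fold change −0.44 ± 0.10, SE, edgeR adjusted p = 0.006975). With offsets for gene length this call was lost (log2 fold change −0.29, adjusted p = 0.07025). kto, the fly Med12 beside it, had a log2 fold change of 0.19 ± 0.20 (SE). Of 7 genes for TBP, its relatives and TAF-like proteins, only Trf2, a TBP-related factor, was tested. It rose to 315, 277 and 270.0 CPM at D60, against 177, 218 and 240 CPM at D30 (log2 fold change 0.46 ± 0.13, SE, edgeR adjusted p = 0.02867). The adjusted p of Trf2 was 0.07423 by DESeq2, up to 0.07971 in the alternatives with all libraries and up to 0.137 with 1 library left out. Its mean was 177 CPM at D40, below 211 CPM at D30. Of 12 RNA polymerase II subunits 2 were tested, and Polr2A, the largest subunit, was called as higher (log2 fold change 0.62 ± 0.20, SE, edgeR adjusted p = 0.04233), a call lost in DESeq2 (adjusted p = 0.1029) and in 5 of 6 fits with 1 library left out. The slope on age called neither Trf2 (edgeR adjusted p = 0.05411) nor Polr2A (edgeR adjusted p = 0.09292).

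Of 12 genes of polymerase pausing and elongation, 8 were tested at D60 and 2 were called, in opposite directions, a share close to the 23.6% of all genes tested. Nelf-A, a subunit of the complex that holds paused polymerase, had 309.5, 330.1 and 331 CPM at D60 and 169, 160.4 and 163 CPM at D30 (log2 fold change 0.99 ± 0.11, SE, edgeR adjusted p = 7.373e-05). lilli, the scaffold of the fly super elongation complex, had 323, 279.9 and 309 CPM at D60 and 483, 556 and 546.9 CPM at D30 (log2 fold change −0.79 ± 0.11, SE, edgeR adjusted p = 0.0003694). The median over the 8 genes was 0.00. Of 10 TFIIH genes only Tfb1 was tested, with a log2 fold change of −0.12 ± 0.33 (SE). At D30 against D20, 0 of 3 Mediator genes under other symbols, 0 of 4 TFIIH genes, 1 of 4 polymerase subunits and 3 of 12 pausing and elongation genes were called, the called ones lower at D30. This is beside 21.2% of all genes tested, with 9.48% lower, and nothing is read from these counts.

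The comparison of DD with LD asked whether the members depend on the light condition. None of 45 members tested was called by edgeR, beside 0.025% of the 8003 genes tested (0.0125% higher and 0.0125% lower). By edgeR 0 members had an unadjusted p under 0.05, beside 675 of the 8003 genes. DESeq2 on the same counts called 4 members, MED8 and MED28 as higher and Taf10 and Taf11 as lower in DD, beside 974 genes (12.2% of 8003). Without LD replicate 2, which leaves LD replicate 1 alone and assumes that it varies as DD does, edgeR called 13 members, 9 of them higher in DD, out of 47 tested, beside 25.5% of 8788 genes (2241). Without LD replicate 1, it called no member, beside 6.35% of 9101 genes (578). Of 42 members with at least 50 counts in LD replicate 2, 14 (33.3%) had no count in LD replicate 1, beside 26.5% of 7374 genes in all. Between the DD libraries, 1 of 36 such members (2.78%) was at 0 in DD replicate 1, beside 3.4% of 6855 genes.

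Without regard to a test, the DD and LD ranges did not overlap for 11 members that were higher and 8 that were lower in DD, of 47 with a count. This is beside 36.1% of 9778 genes in all, of which 22.1% were higher and 14% lower. MED14 was one of the most even members, with 58.8 and 59.8 CPM in DD and 49.9 and 50.8 CPM in LD (log2 fold change 0.22 ± 0.33, SE). MED15 had 9.60 and 5.76 CPM in DD and 19.8 and 21.6 CPM in LD (log2 fold change −1.45 ± 1.07, SE). TfIIA-S had 5.59 and 9.99 CPM in DD and 16.4 and 17.1 CPM in LD (log2 fold change −1.12 ± 1.18, SE). None of these 3 was called in DD against LD by edgeR with all 4 libraries.

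MED8, a head subunit, had 63 and 110 counts in the DD libraries and none in either LD library. Its mean CPM in DD was 35.9 times the mean LD floor, set at 3 counts per library. MED28, a metazoan Mediator subunit, had 33 and 91 counts in DD and none in LD (a DD mean 25.3 times the LD floor). Taf11 had no count in DD and 213 and 34 counts in LD (an LD mean 35.3 times the DD floor). That mean rests mostly on LD replicate 1, with 11.1 CPM against 1.38 CPM in LD replicate 2. Taf10 had 2 and 0 counts in DD and 215 and 185 counts in LD. The edgeR adjusted p was 0.5855 for each of the 4. The floors cover counting error only. Taf13, the histone-fold partner of Taf11, had 93 and 175 counts in DD and 0 and 83 in LD. MED17 had 36 and 73 counts in DD and 605 and 107 in LD.

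**Figure D5:**
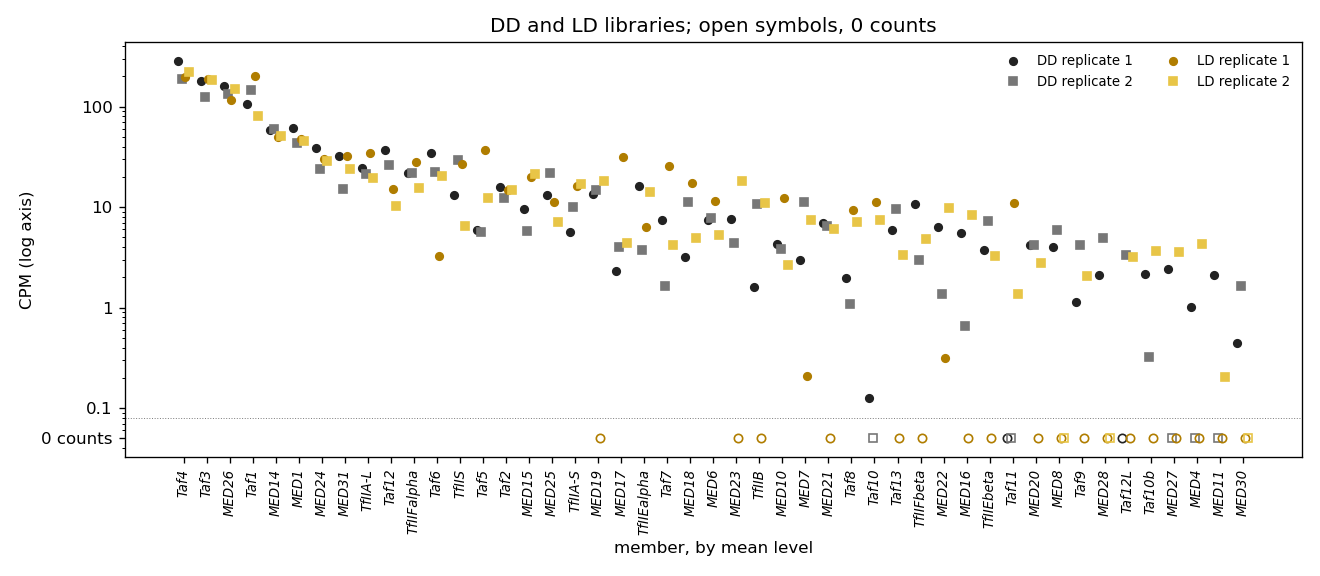
CPM (log axis) of the 47 members with a count in the DD and LD libraries, one symbol per library; open symbols on the lowest line are libraries with 0 counts. LD replicate 1 is at 0 for 20 of the 49 members, MED9 and TfIIA-S-2 (not drawn) included.

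For the other core members the DD and LD ranges overlapped. Taf1 had 105 and 147.5 CPM in DD and 204 and 81.45 CPM in LD, so that both DD libraries lay between the LD libraries (log2 fold change −0.19, and 0.59 without LD replicate 1). Taf4 had 283 and 190.3 CPM in DD and 197 and 219 CPM in LD, and MED1 had 61.3 and 43.3 CPM in DD and 47.2 and 45.7 CPM in LD. TfIIB had 1.59 and 10.6 CPM in DD and 0 and 10.9 CPM in LD, TfIIEalpha had 16.3 and 3.75 CPM in DD and 6.36 and 14.3 CPM in LD, and TfIIS had 13.1 and 29.5 CPM in DD and 27.0 and 6.46 CPM in LD. TfIIA-L had 24.5 and 21.3 CPM in DD and 34.9 and 19.65 CPM in LD, and TfIIFalpha 22.1 and 22.0 CPM in DD and 28.2 and 15.5 CPM in LD. The 95% interval lay within 1 on the log2 scale for only 3 of the 45 members. The 12 outer photoreceptor genes summed to 135800 to 146000 CPM in DD and 73970 to 78310 CPM in LD, while the 3 muscle genes summed to 12.8 to 17.4 CPM in DD and 76.0 to 132 CPM in LD. The 4 brain neuron genes summed to 185 to 332 CPM in DD and 426 to 716 CPM in LD, the 5 fat body and haemocyte genes to 31.5 to 38.9 CPM in DD and 182 to 204 CPM in LD, and the 4 inner photoreceptor genes to 4022 to 5181 CPM in DD and 2808 to 2871 CPM in LD. Their part in the members' values was not tested.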

How the data were processed

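The authors deposited raw counts per gene, with no normalization, in 2 tables of 12 and 7 libraries. Their processing notes name Trimmomatic, STAR, SAMtools, DESeq2 and the dm6 (BDGP6) genome. Whether counting used strand, which annotation it used and how duplicates were treated are not given in the sources used here. Gene symbols, positions and exonic lengths were matched by identifier to the Ensembl annotation of BDGP6 (release 115), for 13866 of 13929 genes and all 49 members.

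With edgeR 4.0.16 under R 4.3.3, counts were tested by a quasi-likelihood F-test after TMM scaling and the default expression filter (minimum count 10, minimum total 15), 2-sided. A fit held only the groups compared and no covariate, and p-values were adjusted over all genes tested. The SE was obtained from the log2 fold change and the root of its F value. The slope used the 12 libraries of D30 to D60. DESeq2 (version 1.42.0), other scalings, filters, a replicate block, length offsets and left-out libraries were alternatives. The replicate numbers come from the titles. Deviations of same-numbered samples correlated in every pair (0.126 to 0.283) only for D40 with D30, where the numbers were taken to pair the samples. Scripts were run on simulated counts whose known changes were larger than those of Taf1, Taf3 and Taf4, and no result here rests on that run.

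The members, as well as the lists, were chosen with earlier results of these data known. Full values were given for members past the threshold, for the 3 largest differences each way in D60 against D30 and DD against LD, and for 12 core members whatever they did. Searches for motifs in promoters were planned and not run, as no genome sequence was used here. The overlap of 1 further member with another gene is not reported here.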

Additional observations from a re-analysis of the deposited data

How the results depend on the processing

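At D60 against D30, Taf1, Taf3 and Taf4 were called under each alternative run that used all libraries (with MED30 in addition under no filter), and the number of members called was 2 to 3 with 1 library left out. With the replicate numbers as a block, their log2 fold changes were 1.19, −0.73 and −0.52, and the block changed no member's call in any comparison. For the slope, testing instead for any difference between ages gave 1 called member, and leaving out 1 library gave 2 to 3. At D30 against D20, no filter gave 4 members (MED1, MED15, Taf1 and Taf10b), and leaving out 1 library 1 to 3. In DD against LD, DESeq2 called 4, one fit sharing more groups called 1 (MED8), and leaving out 1 library gave 0 to 13, the 13 without LD replicate 2. Fold changes near 0 turned direction. MED1 at D60 (−0.01) had a log2 fold change of 0.00869 by library size alone, 0.0283 where each library had to hold 10 counts, 0.000999 with the replicate block, 0.0341 with length offsets and 0.0483 with block and length, and −0.25 to 0.10 with 1 library left out. At D40, Taf1 (0.26) was −0.0631 without both replicate 1 libraries, and Taf4 (−0.08) was −0.17 to 0.024 with 1 library left out. In DD against LD, scaling by library size alone gave −0.117 for MED1, −0.0487 for MED14, −0.107 for Taf4 and −0.161 for TfIIB. TfIIFalpha was 0.000223 with no filter, 0.0171 where each library had to hold 10 counts, 0.056 with the replicate block and 0.0123 in one fit sharing more groups. TfIIS was −1.28 with length offsets and −0.341 with block and length. With 1 DD or LD library left out, log2 fold changes ranged from −0.12 to 0.38 for MED1, −0.68 to 0.59 for Taf1, −0.14 to 0.42 for Taf4, −0.60 to 0.18 for TfIIA-L, −1.82 to 9.77 for TfIIB, −1.48 to 0.67 for TfIIEalpha, −0.35 to 0.46 for TfIIFalpha and −0.36 to 1.68 for TfIIS. The cause of these shifts was not tested. Over all alternatives, genes called in all were 612 to 1492 (960 as reported) at D60, 21 to 233 (57) at D50, 0 to 366 (1) at D40, 559 to 986 (896) for the slope, 894 to 1769 (1355) at D30 against D20 and 0 to 2241 (2) in DD against LD. Depth limited how many members could be tested in the age comparisons within D30 to D60, where 29 to 36 of them were below the filter.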

Other observations

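MED30, a metazoan Mediator subunit below the filter in the age comparisons, was chosen after its values were seen. It had 3, 10 and 4 counts in the D60 libraries and none in the D30 libraries. At D50 it had 1, 4 and 5 counts and at D40 2, 1 and 2 counts. With no filter on low counts it was called as higher at D60 (edgeR adjusted p = 0.0006352) and in the slope on age (0.002774). The D20 libraries, which are deeper, held 8, 11 and 7 counts of MED30, and the DD and LD libraries held 7 and 30 counts in DD and none in LD.

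The TfII genes together summed to 51.0 to 68.7 CPM in the D60 libraries and to 64.7 to 94.2 CPM in the D30 libraries, which overlapped. The 25 MED genes summed to 457 to 573 CPM at D60 and to 467 to 530.3 CPM at D30. The 7 head genes of Mediator, of which none was tested alone at D60, summed to 43.2, 38.3 and 40.0 CPM at D60 and to 25.5, 26.7 and 30.9 CPM at D30. At D40 and D50 they summed to 31.2 to 42.4 CPM and to 32.4 to 35.1 CPM. D40 thus overlapped D60, and D30 was the lowest age of the table. The sums at D60 and D30 rest on 29 counts in each D60 library and on 16 to 21 counts in each D30 library. The head sum was chosen after its values were seen. The sum of the TFIIE genes, chosen in the same way, was 9.64 to 13.4 CPM at D60 and 20.6 to 25.5 CPM at D30. It rests on 9, 10 and 7 counts in the D60 libraries and on 16, 20 and 14 counts in the D30 libraries. At D40 it was 17.7 to 33.6 CPM and at D50 18.2 to 20.0 CPM.

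Neighbouring genes were taken only for Taf1, Taf3 and Taf4, the members called at D60. Strump, the gene 350 bp downstream of Taf4 on the same strand, had 16.4, 10.6 and 11.02 CPM at D60 and 30.3, 31.8 and 27.9 CPM at D30. Its means at D30, D40 and D50 were 30.0, 31.4 and 32.3 CPM, so within this table it was lower at D60 alone. Zn72D, on the other side of Taf4, had 208, 223 and 182 CPM at D60 and 219.8, 223 and 181 CPM at D30. Asator, 2580 bp from Taf3 on the same strand, had 964 to 1098 CPM at D60 and 1309 to 1433 CPM at D30. On the opposite strand, CaMKI had 1309 to 1495 CPM at D60 and 1588 to 1783 CPM at D30, and CG33941 overlapped between these ages. The part of these neighbours in the values of Taf3 and Taf4 was not tested.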
